A study of Homo sapiens with 10 samples.

Results

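The transcripts described here encode 5 collagen chains (COL1A1, COL4A1, COL4A2, COL5A1 and COL26A1) and 5 enzymes that act on collagens (P4HA2, PLOD2, ADAMTS2, LOX and LOXL2). They were picked by gene symbol from the deposited gene counts, where all 10 were found among 19215 genes, and all 10 passed the filter on low counts that left 13349 genes for testing. The study measured messenger RNA in HepG2, a human line from a liver tumour that retains hepatocyte traits, and SK-Hep1; the labels call both HCC (hepatocellular carcinoma) lines. Cells of each line received lentivirus coding for a tough decoy (TuD), a hairpin RNA that captures a microRNA, aimed either at the miR-17 family or at no human target (negative control, NC TuD). The 4 groups were HepG2 miR-17 TuD and HepG2 NC TuD with 3 libraries each, and SK-Hep1 miR-17 TuD and SK-Hep1 NC TuD with 2 libraries each. All 4 were handled alike, with 48 h of virus (multiplicity of infection 5, 10 µg/mL polybrene), followed by a selection of 2 weeks at 1 µg/mL puromycin; the serum content of the medium was 10%. The colonies that survived were pooled, so that each arm of each line is 1 stable line, and a difference between arms cannot be told apart from one that arose while those stable lines were made. The labels do not say that libraries of 1 group came from separate cultures, so p-values measure the spread between these libraries, which may be technical.

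Collagen chains are hydroxylated in the endoplasmic reticulum, on prolines by prolyl hydroxylases and on lysines by lysyl hydroxylases, wind into triple helices with the help of the chaperone HSP47 and are exported in enlarged transport carriers. Outside the cell, proteases of the ADAMTS and BMP1 types trim the ends of fibrillar procollagens, and lysyl oxidases crosslink the finished molecules through their lysines. In liver, fibrillar collagens come mainly from stellate cells and fibroblasts in scar tissue, and type IV collagen forms the sheets of basement membranes.

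The decoy is aimed at microRNAs that share 1 seed, the stretch of bases 2 to 8 that pairs with a target. Of the human mature microRNAs in RefSeq (GRCh38.p14), 8 carry that seed, and 4 of them, encoded at several loci, are shown here 5′ to 3′ with the seed in capitals, because a match to these bases is what a direct target would be searched for.
hsa-miR-17-5p: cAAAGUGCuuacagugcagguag
hsa-miR-20a-5p: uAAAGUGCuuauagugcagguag
hsa-miR-93-5p: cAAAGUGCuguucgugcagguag
hsa-miR-106b-5p: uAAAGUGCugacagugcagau
In GRCh38.p14 miR-17-5p lies at chr13:91350618-91350640 and miR-20a-5p at chr13:91351072-91351094, both on the plus strand, and miR-93-5p at chr7:100093815-100093837 and miR-106b-5p at chr7:100094043-100094063, both on the minus strand. These microRNAs themselves were not measured in the libraries, so the counts hold no direct check on the decoy. In DNA letters, the match is GCACTTT (7mer-m8), GCACTTTA (8mer) or CACTTTA (7mer-A1). In the longest annotated 3′ untranslated region (3′UTR) of each gene in GENCODE 29, 1 of the 10 genes held any of the 3, against 31.3% of the 12732 tested genes that could be searched. That gene was P4HA2, with a 7mer-m8 on the minus strand in a 3′UTR of 1172 bases. The stretch printed here, chr5:132192144-132192172 (GRCh38), holds the matched bases in capitals and flanking bases on either side.
P4HA2 3′UTR site: cactgcccccaGCACTTTggagataaatc
With the 3′UTRs of all transcripts included, ADAMTS2, COL4A1 and COL4A2 also held a match, which makes 4 of 10, beside 33.7% of the 12732 genes searched in the same way. A match is only a run of letters and was not tested as a site. The level of P4HA2 is given below and did not pass the test in either line.

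Each library held 12884225 to 15076431 gene counts, so that 1 count stood for 0.0657 to 0.0795 CPM (counts scaled to a library size corrected by the trimmed mean of M values, TMM, as in edgeR). A count of 0 allows up to 3 counts, or 0.197 to 0.239 CPM. Hepatocyte markers (9 genes) summed to 54125 to 56381 CPM in HepG2 NC TuD and 46866 to 49433 CPM in HepG2 miR-17 TuD, with all 9 above 1 CPM. In SK-Hep1 their sums were 84.4 to 104 CPM in NC TuD, with TTR at 0, and 74.1 to 79.9 CPM in miR-17 TuD, with TTR and APOA1 at 0. Most of the SK-Hep1 sums was SERPINA1, at 63.8 to 70.1 CPM, and 6 of the 9 markers reached 1 CPM in SK-Hep1 NC TuD and 3 in miR-17 TuD. The ALB counts of the SK-Hep1 libraries were 59 and 113 in NC TuD against 0 and 4 in miR-17 TuD, all at most 0.0547% of the HepG2 NC TuD mean. Endothelial markers (9 genes) summed to 5.4 to 6.44 and 4.25 to 6.09 CPM in the NC and miR-17 arms of HepG2, and to 1.83 to 2.23 and 2.03 to 2.54 CPM in those of SK-Hep1, where PECAM1, KDR, CLEC4G and ERG were at 0 in both arms. Fibroblast or stellate cell markers (9 genes, COL1A2 and COL3A1 among them) summed to 19.5 to 24.2 and 18.4 to 21.5 CPM in HepG2 and to 82.3 to 94.3 and 87.7 to 88.3 CPM in SK-Hep1. Smooth muscle markers (5 genes) summed to 105.0 to 113 and 137 to 148 CPM in HepG2 and to 45.0 to 46.2 and 43.3 to 45.9 CPM in SK-Hep1. Blood cell markers (6 genes) summed to 2568 to 2650 and 2261 to 2397 CPM in HepG2 and to 152 and 166 to 167 CPM in SK-Hep1. CD3E and HBB were at 0 in every group. Nearly all of these sums was LYZ in HepG2 (2196 to 2601 CPM) and CD68 in SK-Hep1 (149 to 166 CPM). PTPRC was at 0 in HepG2 and had at most 2 counts in an SK-Hep1 library, so the sums are no measure of blood cells. In bulk RNA of this kind, fewer cells of a type and less RNA per cell cannot be told apart.

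The first comparison described where the 10 transcripts stood in the control cells of each line. SK-Hep1 NC TuD held far more RNA of both type IV chains, of COL5A1 and of the crosslinking enzyme LOXL2, whereas COL26A1 and ADAMTS2 were transcripts of HepG2. PLOD2 was high in both lines, and COL1A1, LOX and P4HA2 were clearly detected in both. All 10 genes passed the test between lines, 7 higher and 3 lower in SK-Hep1, as did 86.7% of all genes tested (43.9% higher and 42.8% lower), so that a call between these lines is not a property of collagen genes. COL4A1 and COL5A1, with 2 and 7 counts in HepG2 NC TuD, passed the filter on low counts only through SK-Hep1. COL26A1 and ADAMTS2, with 1 and 6 counts in SK-Hep1 NC TuD, passed it only through HepG2. Their calls between lines largely followed from that filter and are no separate evidence. The median log2 difference, these genes included, was 2.37 over the 10 genes and 0.02 over all genes tested.

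**Figure D1:**
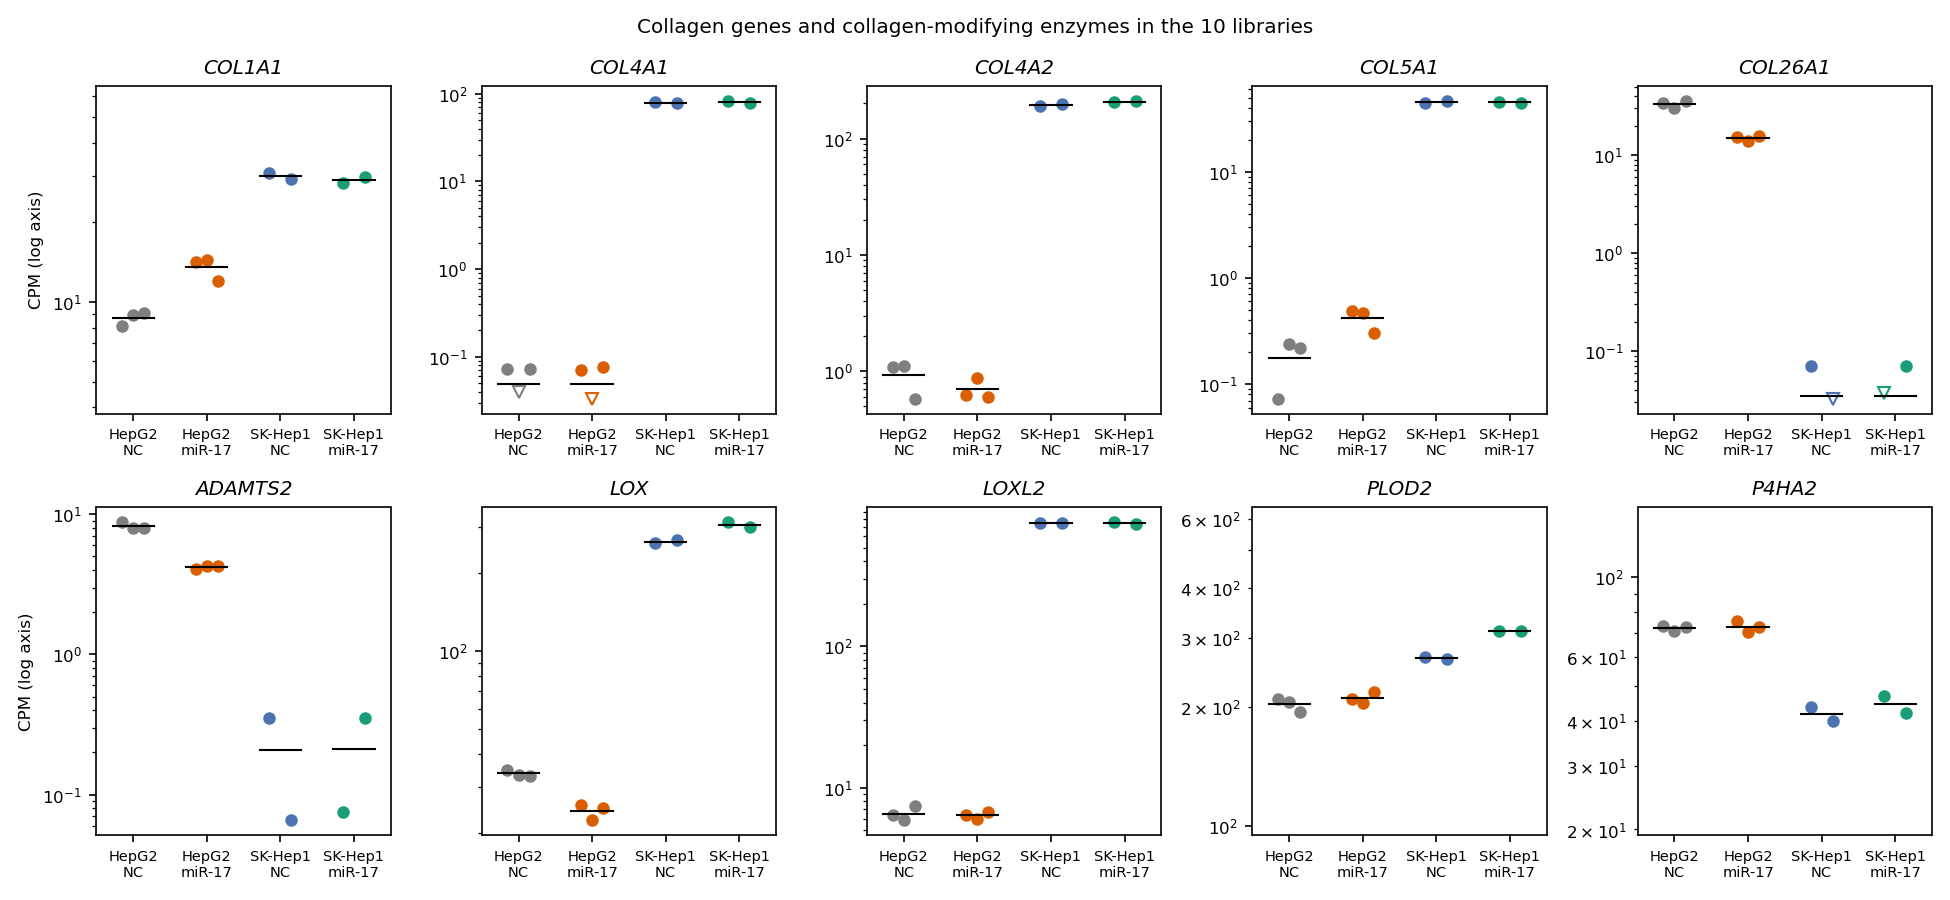
CPM of each of the 10 genes in every library, on log axes that differ between panels; points are libraries, black bars are group means, and open triangles, drawn at 0.5 of 1 count, are libraries with 0 counts. COL26A1 and ADAMTS2 lie lower and COL1A1 higher in the 3 HepG2 miR-17 TuD libraries than in the 3 NC TuD libraries, while COL4A1, COL4A2, COL5A1 and LOXL2 differ mainly between lines.

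The fibrillar chains were examined first. COL1A1 (chr17:50183289-50201632, minus strand, GRCh38), the chain present in all type I collagen, measured 8.1, 8.91 and 9.1 CPM in the 3 HepG2 NC TuD libraries and 30.6 and 29.02 CPM in the SK-Hep1 NC TuD libraries. The lines did not overlap, and SK-Hep1 was higher by 1.78 ± 0.10 on the log2 scale (SE, edgeR adjusted p = 6.5e-24). COL1A2, whose product joins COL1A1 chains in the usual type I molecule, had 0 counts in all 6 HepG2 libraries and 2 or 3 counts in each SK-Hep1 library (0.169 ± 0.0399 CPM in NC TuD, SD, n = 2), too few for the test. Neither line therefore held the RNA of the second type I chain above the limit that these counts set.

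COL5A1 (chr9:134641774-134844843, plus strand), a chain of type V collagen, which regulates the width of fibrils, had 1, 3 and 3 counts in HepG2 NC TuD and 639 and 708 in SK-Hep1 NC TuD. In CPM these were 0.177 ± 0.0904 (SD, n = 3) and 45.7 ± 1.13 (SD, n = 2), a ratio of 261 with an exact 95% interval of 127 to 651 that covers counting error only. COL5A2, which joins it in type V collagen, was higher in SK-Hep1 as well, at 90.9 against 2.31 CPM (log2 difference 5.30 ± 0.10, edgeR adjusted p = 3.31e-47). COL27A1, a long fibrillar collagen of cartilage, went the other way, at 36.8 CPM in SK-Hep1 and 418 CPM in HepG2 (-3.50 ± 0.06, edgeR adjusted p = 1.48e-51).

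Both type IV members were far higher in SK-Hep1. COL4A1 (chr13:110148963-110307233, minus strand) had 1, 0 and 1 counts in the HepG2 NC TuD libraries and 1143 and 1188 in the SK-Hep1 NC TuD libraries, a ratio of 1583 (exact 95% interval 438 to 13080). COL4A2 (chr13:110305812-110513209, plus strand), which encodes its partner in the common type IV trimer, was read 15, 14 and 8 times in HepG2 and 2735 and 3017 times in SK-Hep1, 211 times the CPM (153 to 300.2). In HepG2, COL4A1 was thus at the floor and COL4A2 low but above it (0.93 CPM), and both were among the abundant collagens of SK-Hep1. Per kilobase of annotated exon, COL4A2 stood above COL4A1 in SK-Hep1 NC TuD, at 10.1 ± 0.219 and 5.37 ± 0.110 CPM per kb (SD, n = 2). The order held when length was taken from the longest transcript (30.05 and 11.96 CPM per kb). COL4A5 and COL4A6, 2 other type IV chains, were present in both lines. COL4A5 measured 85.6 CPM in HepG2 and 36.5 CPM in SK-Hep1 (-1.23 ± 0.06, edgeR adjusted p = 1.61e-25), and COL4A6 32.0 and 35.0 CPM, which did not pass the test (0.13 ± 0.08, edgeR adjusted p = 0.112).

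COL4A1 and COL4A2 are transcribed head to head from a shared stretch of chromosome 13. It is shown because both RNAs were high in SK-Hep1 and low in HepG2. RefSeq places their start sites 127 bases apart, and the windows of 250 bases before to 50 bases after each start overlap by 226 bases. The COL4A2 window, at chr13:110307034-110307333 on the plus strand (GRCh38.p14), reads as follows, with each CCAAT and GGGCGG, on either strand, in capitals.
COL4A2 promoter window: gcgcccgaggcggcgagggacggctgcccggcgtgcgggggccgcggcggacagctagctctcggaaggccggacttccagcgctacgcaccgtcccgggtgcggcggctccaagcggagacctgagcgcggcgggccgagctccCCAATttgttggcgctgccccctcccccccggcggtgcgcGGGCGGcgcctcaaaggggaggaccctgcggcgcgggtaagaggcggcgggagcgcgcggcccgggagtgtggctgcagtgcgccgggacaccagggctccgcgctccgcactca
It is 77.7% G or C and holds 1 CCAAT and 1 GGGCGG. Among 35116 RefSeq promoter windows of the same length, 34.6% held CCAAT and 45% held GGGCGG on either strand, so that neither run of letters is rare.

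COL26A1 (chr7:101362820-101559024, plus strand) encodes a small non-fibrillar collagen first described in testis and ovary. Its HepG2 NC TuD libraries measured 34.3, 30.3 and 35.7 CPM, while the SK-Hep1 NC TuD libraries held 1 and 0 counts, a ratio of 987 (exact 95% interval 177 to 39022). Per kilobase it ranked 5 of 41 collagen genes in HepG2 NC TuD by exon length (10.6 ± 0.885 CPM per kb) and 7 by the longest transcript. It was at the floor in SK-Hep1. Among the collagens that are neither fibrillar nor network-forming, COL6A3 and COL6A2, chains of the microfibrillar type VI collagen, differed the other way with 148 and 78.3 CPM in SK-Hep1 and 0.0729 and 0.877 CPM in HepG2.

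**Figure D2:**
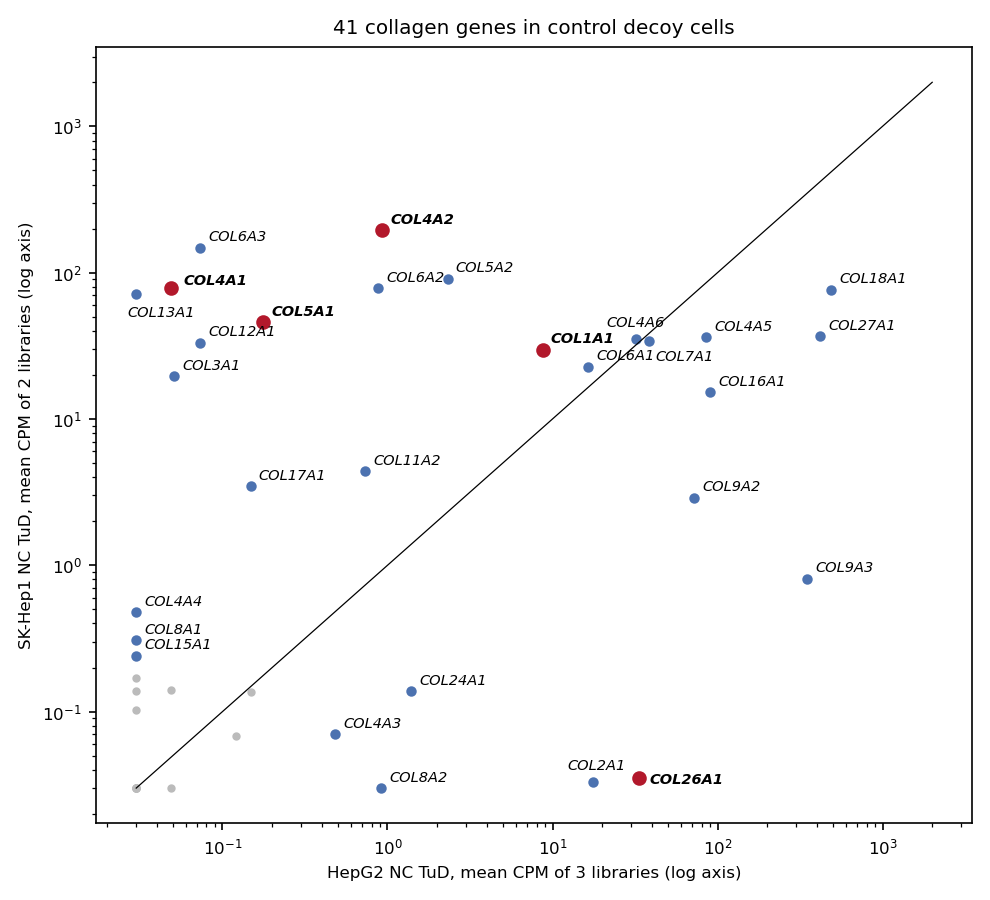
Mean CPM of 41 collagen genes in HepG2 NC TuD (x axis, 3 libraries) and SK-Hep1 NC TuD (y axis, 2 libraries), both on log axes, with the line of equality; the 5 collagen members are red, other named collagens blue, collagens under 0.2 CPM in both groups grey, and means under 0.03 CPM are drawn at 0.03. COL4A1, COL4A2 and COL5A1 lie far above the line at 79.2, 195 and 45.7 CPM in SK-Hep1, and COL26A1 far below it at 33.4 CPM in HepG2.

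Summed over all 41 collagen genes, HepG2 held 1659 ± 109 CPM in NC TuD and 1760 ± 95.9 CPM in miR-17 TuD (SD, n = 3), and SK-Hep1 1063 ± 38.2 and 1092 ± 11.6 CPM (SD, n = 2). At least 1 CPM was reached by 14 and 13 collagen genes in the NC and miR-17 arms of HepG2 and by 20 in each arm of SK-Hep1. HepG2 thus had the larger total from fewer genes.

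Among the enzymes of the endoplasmic reticulum, PLOD2 (chr3:146069440-146163653, minus strand), a lysyl hydroxylase that acts on the ends of collagen chains and so prepares their crosslinks, was the most abundant member per kilobase in HepG2 NC TuD (26.6 ± 1.05 CPM per kb, SD, n = 3). Its level was 209.7, 206 and 194 CPM in HepG2 NC TuD and 268 and 264 CPM in SK-Hep1 NC TuD, a log2 difference of 0.39 ± 0.04 (edgeR adjusted p = 3.5e-12). The other lysyl hydroxylases were lower in SK-Hep1, PLOD1 by a log2 difference of -1.41 ± 0.05 and PLOD3 by -0.83 ± 0.05. P4HA2 (chr5:132191838-132295315, minus strand), a catalytic subunit of prolyl hydroxylase, measured 73.2, 70.8 and 72.7 CPM in HepG2 NC TuD and 43.6 and 39.9 CPM in SK-Hep1 NC TuD (-0.79 ± 0.06, edgeR adjusted p = 5.18e-17). Its sister subunit P4HA1 and their shared partner P4HB, protein disulfide isomerase, were also lower in SK-Hep1, by -1.57 ± 0.06 and -1.03 ± 0.04, as was SERPINH1, which encodes HSP47 (-0.95 ± 0.05). LEPREL1, a prolyl 3-hydroxylase, was the reverse case, with 0 counts in every HepG2 NC TuD library and 24.6 CPM in SK-Hep1 NC TuD. Of 16 tested genes for hydroxylation, glycosylation and folding, 3 were higher in SK-Hep1 and 13 lower, with a median log2 difference of -0.80. Of 8 genes for procollagen export none was higher and 7 were lower (median -1.27), with SEC23A at -2.38 ± 0.04 and CTAGE5 at -3.40 ± 0.07. These calls were 100% and 87.5% of the 2 lists, beside 86.7% of all genes tested (43.9% higher and 42.8% lower). LEPREL1 passed the filter on low counts only through SK-Hep1.

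Outside the cell the pattern between lines was mixed. LOX (chr5:122063195-122078360, minus strand), the founding lysyl oxidase, measured 34.9, 33.3 and 33.1 CPM in HepG2 NC TuD and 260.2 and 267 CPM in SK-Hep1 NC TuD, a log2 difference of 2.96 ± 0.05 (edgeR adjusted p = 7.52e-49). LOXL2 (chr8:23297189-23425328, minus strand), a relative that crosslinks type IV collagen, measured 6.35, 5.88 and 7.35 CPM against 754 and 744 CPM, a difference of 6.84 ± 0.06 (edgeR adjusted p = 1.5e-64). LOXL2 was the most abundant member per kilobase in SK-Hep1 NC TuD, at 131 ± 1.21 CPM per kb. LOXL1 was also higher in SK-Hep1 (6.07 ± 0.24), whereas LOXL4 was lower (-3.03 ± 0.10). ADAMTS2 (chr5:179110851-179345430, minus strand), the protease that removes the amino-terminal propeptide of fibrillar procollagens, had 120, 101 and 110 counts in HepG2 NC TuD and 5 and 1 in SK-Hep1 NC TuD, a ratio of 40.6 (exact 95% interval 18.5 to 111). Among 8 tested genes for collagen breakdown and its inhibitors, 6 were higher and 1 lower in SK-Hep1 (median 2.85), or 87.5%, beside 86.7% of all genes tested. TIMP3, a metalloprotease inhibitor, stood at 3.38 ± 0.04 and MMP14, a membrane-bound collagenase, at 4.28 ± 0.06. In this list MMP9 and MRC2, with 6 and 2 counts in HepG2 NC TuD, passed the filter on low counts only through SK-Hep1, as did LOXL1 with 9. MMP2, with 1 count in SK-Hep1 NC TuD, passed it only through HepG2. Their calls between lines are no separate evidence.

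Ranked per kilobase, the members of HepG2 NC TuD ran PLOD2, COL26A1, P4HA2, LOX, LOXL2, ADAMTS2, COL1A1, COL4A2, COL5A1 and COL4A1. ADAMTS2 and COL1A1 did not differ beyond their spread in this order (0.947 ± 0.0486 and 0.886 ± 0.0542 CPM per kb). In SK-Hep1 NC TuD the order was LOXL2, LOX, PLOD2, COL4A2, COL4A1, P4HA2, COL5A1, COL1A1, ADAMTS2 and COL26A1. COL4A1 and P4HA2 stood close (5.37 ± 0.110 and 4.91 ± 0.308), and the last 2 rested on 6 counts and 1 count. With lengths from the longest transcript, P4HA2 passed COL26A1 in HepG2 (21.6 and 11.02 CPM per kb) and COL1A1 passed ADAMTS2 (1.29 and 1.22). In SK-Hep1 by that measure PLOD2 passed LOX (69.4 and 51.6) and P4HA2 passed COL4A1 (12.5 and 11.96).

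The second comparison asked which of these transcripts changed with the miR-17 decoy in HepG2. COL1A1 rose, and COL26A1, ADAMTS2 and LOX fell. Of the 10 genes, 4 passed the test, 1 higher and 3 lower, where 19.3% of all genes tested passed (10.7% higher and 8.58% lower). These genes and the pathway lists below were chosen with earlier results of these data known. Shares set beside those of all genes, here and below, therefore do not test the genes as a set. The median log2 fold change was -0.06 over the 10 genes and 0.00 over all genes tested.

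COL26A1 had the largest change among the called members. It measured 15.3, 13.98 and 15.5 CPM in miR-17 TuD against 34.3, 30.3 and 35.7 CPM in NC TuD. Every library with the miR-17 decoy lay below every control, and the level fell by 1.17 ± 0.09 on the log2 scale, 2.25-fold (edgeR adjusted p = 1.17e-16). Its rank among 41 collagens per kilobase went from 5 to 7 by exon length and from 7 to 8 by the longest transcript.

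ADAMTS2 measured 4.06, 4.28 and 4.25 CPM with the miR-17 decoy and 8.75, 8.03 and 8.01 CPM with the control. The arms were again separate, with a fall of 0.98 ± 0.15 on the log2 scale (edgeR adjusted p = 1.03e-06). In the deposited log2 matrix, fitted by limma over all 10 libraries, the calls of COL26A1 and ADAMTS2 were lost (limma adjusted p = 0.199 and 0.361). Both were called there when the HepG2 libraries alone entered, an alternative added after the data were seen (limma adjusted p = 0.00465 and 0.00328).

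LOX measured 25.6, 22.3 and 24.9 CPM with the miR-17 decoy and 34.9, 33.3 and 33.1 CPM with the control, and fell by 0.48 ± 0.07 on the log2 scale (edgeR adjusted p = 1.01e-07). LOX shares exonic bases on the opposite strand with SRFBP1, and the library kit keeps no strand, so reads of the overlap cannot be assigned. SRFBP1 itself stood at -0.06 ± 0.09 (edgeR adjusted p = 0.733). Exonic bases are also shared by LOXL2 with ENTPD4, on the same strand, and with AC090197.1 on the opposite strand. P4HA2 shares some with P4HA2-AS1, and COL4A2 with COL4A2-AS1 and COL4A2-AS2, all antisense. The same limit holds for the levels of these members.

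COL1A1 measured 14.1, 14.4 and 11.98 CPM with the miR-17 decoy and 8.1, 8.91 and 9.1 CPM with the control. No library of one arm overlapped the other, and the level rose by 0.64 ± 0.11 on the log2 scale, 1.56-fold (edgeR adjusted p = 5.37e-06). COL1A2 remained at 0 counts in all 3 miR-17 TuD libraries. COL5A1 had 7, 7 and 4 counts with the miR-17 decoy and 1, 3 and 3 with the control. These did not overlap either, yet the difference did not pass the test (1.24 ± 0.57, edgeR adjusted p = 0.132), and the ratio of 2.43 had an exact 95% interval of 0.967 to 6.87.

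The other 5 members did not pass the test in HepG2. PLOD2 stood at 209.4, 205 and 218 CPM against 209.7, 206 and 194 CPM (0.05 ± 0.04, edgeR adjusted p = 0.42), and P4HA2 at 75.5, 70.2 and 72.7 CPM against 73.2, 70.8 and 72.7 CPM (0.01 ± 0.05). Both pairs of arms overlapped. LOXL2 ranged from 5.95 to 6.75 CPM with the miR-17 decoy and from 5.88 to 7.35 CPM with the control (-0.05 ± 0.12). COL4A1 had 1, 0 and 1 counts in each arm, and COL4A2 had 9, 13 and 8 counts against 15, 14 and 8 (-0.38 ± 0.34, edgeR adjusted p = 0.503), depths at which only a large change could be seen.

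**Figure D3:**
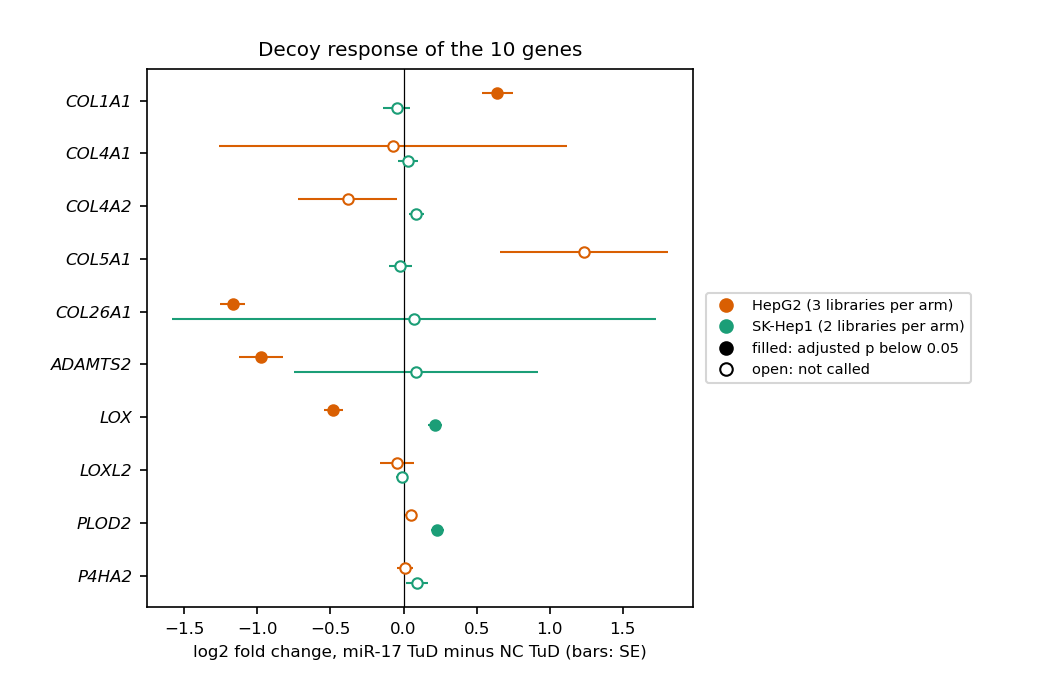
Log2 fold change, miR-17 TuD minus NC TuD, of the 10 genes in HepG2 (orange, 3 libraries per arm) and SK-Hep1 (green, 2 libraries per arm), with standard errors; filled points had an edgeR adjusted p below 0.05. COL1A1 stands at 0.64 and LOX at -0.48 in HepG2, and LOX and PLOD2 at 0.21 and 0.23 in SK-Hep1; wide bars mark genes with a few counts in that line.

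Beyond the 10 genes, 56 other tested genes of 7 collagen pathway lists gave 6 higher and 11 lower calls in HepG2, or 30.4%, beside 19.3% of all genes. For the machinery of hydroxylation, glycosylation and folding, the 14 tested genes other than PLOD2 and P4HA2 gave 0 higher and 6 lower calls (median -0.09). SERPINH1 measured 158, 169.6 and 156 CPM with the miR-17 decoy and 195, 183 and 201 CPM with the control, a fall of 0.26 ± 0.04 (edgeR adjusted p = 7.53e-06). P4HA1 measured 103, 97.0 and 105 CPM against 122, 126 and 117 CPM (-0.26 ± 0.05, edgeR adjusted p = 2.62e-05). In both genes the arms were separate, but the sizes were small.

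PPIB, the cyclophilin that helps collagen fold, fell by 0.21 ± 0.04 (edgeR adjusted p = 8.16e-06), P4HB by 0.14 ± 0.03 (edgeR adjusted p = 0.000571) and LEPRE1, a prolyl 3-hydroxylase, by 0.25 ± 0.05 (edgeR adjusted p = 3.93e-05). The remaining call, LEPREL2 (-0.17 ± 0.06, edgeR adjusted p = 0.0434), is named after its values were seen and was lost in 9 of 13 alternatives. These included leaving out replicate 1 or 3 of either arm (edgeR adjusted p from 0.0679 to 0.242), DESeq2 and its size factors (0.153 and 0.0558) and both fits of the deposited matrix (limma adjusted p = 0.277 and 0.251). Calls of SERPINH1, P4HA1, PPIB, P4HB and LEPRE1 were lost in the deposited log2 matrix when HepG2 libraries alone were fitted (limma adjusted p = 0.0721, 0.053, 0.0512, 0.121 and 0.063), and that of P4HB also with all 10 (0.0596). PLOD1 (0.01 ± 0.04) and PLOD3 (-0.03 ± 0.04) did not pass the test.

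**Figure D4:**
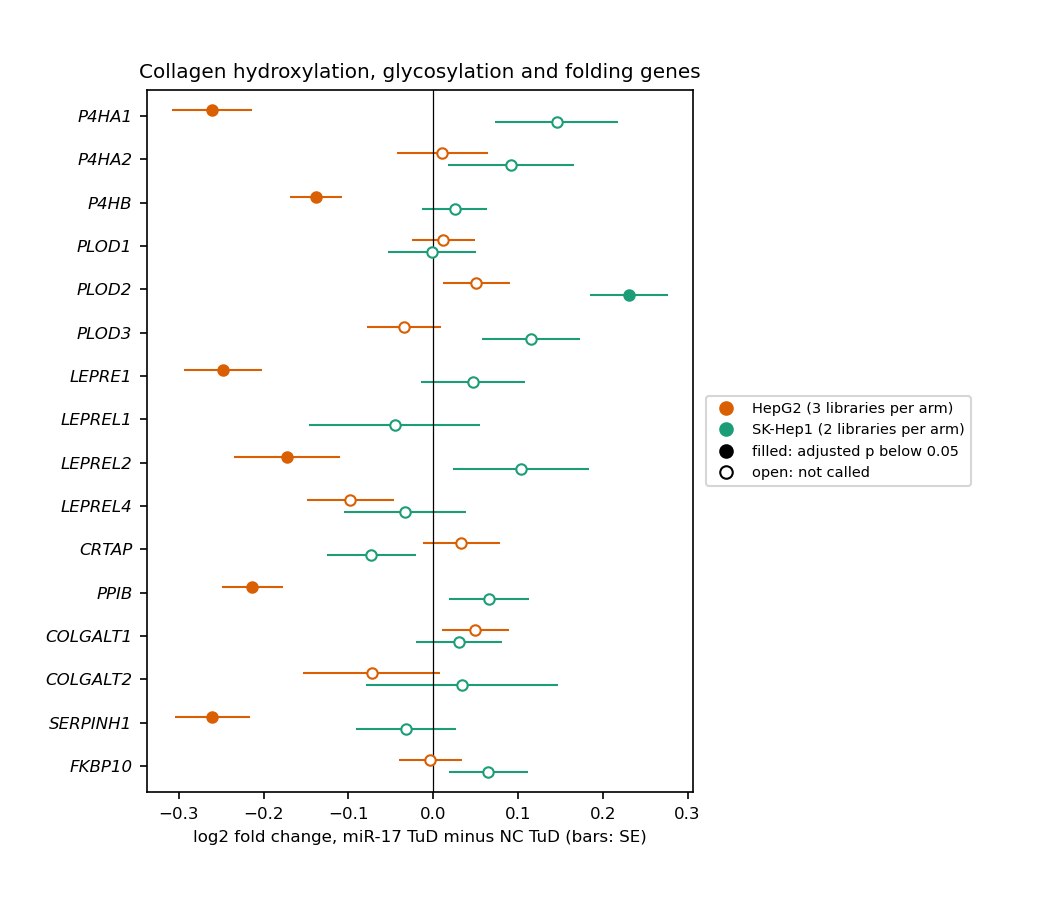
Log2 fold change, miR-17 TuD minus NC TuD, of tested genes for collagen hydroxylation, glycosylation and folding in HepG2 (orange) and SK-Hep1 (green), with standard errors; filled points had an edgeR adjusted p below 0.05, and LEPREL1 has no HepG2 point because it had 0 counts there in both arms. The 6 filled HepG2 points lie at or below -0.14, and the only filled SK-Hep1 point is PLOD2 at 0.23.

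Fibrillar collagens other than COL1A1 and COL5A1 gave 1 higher and 1 lower call among 6 in HepG2. COL2A1, the cartilage collagen, fell by 0.65 ± 0.10 from 17.5 to 11.2 CPM (edgeR adjusted p = 2.77e-06), and COL27A1 rose by 0.17 ± 0.04 (edgeR adjusted p = 0.00059). The call of COL27A1 was lost in both fits of the deposited log2 matrix (limma adjusted p = 0.101 and 0.174) and that of COL2A1 in the fit of all 10 libraries (0.297). Of the 3 other network-forming collagens tested, COL4A5 rose by 0.30 ± 0.05 (edgeR adjusted p = 6.02e-06) and COL4A6 by 0.37 ± 0.07 (edgeR adjusted p = 3.81e-05), the neighbouring X-linked pair of type IV genes. Both were just lost in the deposited matrix with HepG2 alone (limma adjusted p = 0.0536 and 0.0526).

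Among the other 11 collagens 0 were higher and 2 lower, COL6A1 by -0.38 ± 0.09 (edgeR adjusted p = 0.00198) and COL9A2 by -0.22 ± 0.06 (edgeR adjusted p = 0.00743). The COL9A2 arms overlapped, and its call was lost in 4 of 13 alternatives: without NC TuD replicate 3 (-0.13, edgeR adjusted p = 0.163), with DESeq2 (adjusted p = 0.0691) and in both fits of the deposited matrix (limma adjusted p = 0.283 and 0.261). For the genes of procollagen export the count was 0 of 8 by edgeR and by DESeq2, with 1 at an unadjusted edgeR p below 0.05.

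For the genes of propeptide cleavage and crosslinking, 2 of 6 other genes rose and 1 fell. LOXL4, another lysyl oxidase, measured 66.6, 69.3 and 66.7 CPM with the miR-17 decoy and 44.5, 44.9 and 47.5 CPM with the control, and rose by 0.57 ± 0.06 (edgeR adjusted p = 3.64e-11), opposite in sign to LOX. PCOLCE2, an enhancer of carboxy-terminal propeptide removal, had 4, 3 and 6 counts against 21, 13 and 20 (-2.11 ± 0.41, edgeR adjusted p = 8.02e-05). BMP1, the protease it assists, rose by 0.27 ± 0.07 (edgeR adjusted p = 0.00646), which no longer passed once replicate 2 of the miR-17 arm was left out (0.22, edgeR adjusted p = 0.069) or in either fit of the deposited matrix (limma adjusted p = 0.0536 and 0.0772). Among the 8 breakdown genes TIMP2 rose by 0.23 ± 0.05 (edgeR adjusted p = 0.000118). MMP2, a gelatinase, fell by 0.72 ± 0.26 (edgeR adjusted p = 0.0394) from 2.46 to 1.48 CPM, which no longer passed once replicate 1 or 3 of the miR-17 arm, or 2 or 3 of the control arm, was left out (edgeR adjusted p from 0.0908 to 0.165). It was also lost with DESeq2 (adjusted p = 0.227) and both fits of the deposited matrix (limma adjusted p = 0.455 and 0.101), and in 8 of 13 alternatives in all.

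Beside these HepG2 results, 5 of the 9 hepatocyte markers (ALB, AFP, APOA2, TTR and FGB) were lower in every miR-17 TuD library than in every NC TuD library, and 2 (SERPINA1 and TF) were higher. Of the 5 smooth muscle markers, ACTA2 and TAGLN were higher in every miR-17 TuD library and 3 overlapped. Of the 6 blood cell markers only LYZ had separate arms, lower with the miR-17 decoy. PECAM1 and CDH5 were the only 2 of 9 endothelial markers with separate arms, both lower, on 3 to 21 counts per library. None of the 9 fibroblast or stellate markers had separate arms. The share of all genes with separate arms was not counted, and the part of these markers in the collagen results was not tested.

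The third comparison asked the same of SK-Hep1. LOX and PLOD2 rose by small amounts, and 2 of the 10 genes passed, where 0.869% of all genes did. The choice of genes with earlier results known limits this share as well. The median log2 fold change was 0.08 over the 10 genes and -0.01 over all genes tested. PLOD2 measured 313 and 312 CPM with the miR-17 decoy and 268 and 264 CPM with the control, a rise of 0.23 ± 0.05 (edgeR adjusted p = 0.00187). LOX measured 312 and 299 CPM against 260.2 and 267 CPM, a rise of 0.21 ± 0.05 (edgeR adjusted p = 0.00872). In both genes the 2 libraries of one arm lay above the 2 of the other.

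Neither call was stable with 2 libraries per arm. The PLOD2 call was lost without NC TuD replicate 2 (edgeR adjusted p = 0.077). The LOX call was lost without either control library (edgeR adjusted p = 0.222 and 0.08 without replicates 1 and 2) and without replicate 1 of the miR-17 arm (0.349). Both were lost on the deposited log2 matrix (limma adjusted p = 0.163 for PLOD2 and 0.381 for LOX). In SK-Hep1, 5 of the 9 hepatocyte markers were lower in both miR-17 TuD libraries than in both controls (ALB, AFP, APOA1, APOA2 and APOB). Another 2, SERPINA1 and FGB, were higher. ALB and AFP were at most 0.0547% and 0.0667% of the HepG2 NC TuD mean in these libraries, a trace. Of the 9 fibroblast or stellate markers 3 were higher, 1 was lower and 5 overlapped. For the 9 endothelial markers these numbers were 1, 2 and 6. The higher fibroblast or stellate markers, PDGFRA, FAP and COL1A2, had 5 counts or fewer in every SK-Hep1 library. CDH5 and TEK, the lower endothelial markers, had 0 counts with the miR-17 decoy and 1 count in each control. No change can be read from such counts. With 2 libraries per arm, arms separate easily, and the share of all genes that did so was not counted. The part of these markers was not tested.

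PLOD2 and LOX are textbook targets of the hypoxia-inducible factors, which bind a core written ACGTG or GCGTG. Because these were the members that moved in SK-Hep1, their promoter windows are shown (RefSeq, GRCh38.p14, 250 bases before to 50 after the start, minus strand), with that core on either strand in capitals. LOX has 3 start sites in the table, and the most upstream is given, at chr5:122078210-122078509; the PLOD2 window is chr3:146161135-146161434.
LOX promoter window: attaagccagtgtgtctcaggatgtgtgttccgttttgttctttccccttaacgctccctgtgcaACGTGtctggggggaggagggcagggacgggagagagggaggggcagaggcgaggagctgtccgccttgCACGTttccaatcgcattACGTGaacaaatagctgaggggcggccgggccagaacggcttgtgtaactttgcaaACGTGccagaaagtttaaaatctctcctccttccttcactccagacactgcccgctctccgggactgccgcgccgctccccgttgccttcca
PLOD2 promoter window: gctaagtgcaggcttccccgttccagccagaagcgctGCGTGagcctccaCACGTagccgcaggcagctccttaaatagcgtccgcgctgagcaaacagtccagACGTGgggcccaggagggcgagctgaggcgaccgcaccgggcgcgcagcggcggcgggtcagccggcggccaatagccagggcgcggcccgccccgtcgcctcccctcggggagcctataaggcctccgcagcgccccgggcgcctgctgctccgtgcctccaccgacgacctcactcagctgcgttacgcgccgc
The LOX window held 4 such cores and the PLOD2 window 3. Windows were found for 8 of the 10 genes, all but COL1A1 and LOXL2, and 5 of the 8 held the core, as did 48.4% of 35116 promoter windows. Besides LOX and PLOD2, the core stood in the windows of COL26A1, COL4A2 and COL5A1. Of these, COL4A2 and COL5A1 were not called in SK-Hep1, and COL26A1, with 0 or 1 count per library there, could not be. The P4HA2 window lacked it, and P4HA2 was not called either. LOX fell in HepG2, where PLOD2 was not called. These are letters only, binding was not measured, and a part of these factors was not tested.

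The other 8 members did not pass the test in SK-Hep1. COL1A1 measured 28.2 and 29.5 CPM with the miR-17 decoy and 30.6 and 29.02 CPM with the control (-0.05 ± 0.09, edgeR adjusted p = 0.953). COL4A2 measured 204 and 211 CPM against 192 and 198 CPM, arms that did not overlap but whose difference of 0.09 ± 0.05 failed the test (edgeR adjusted p = 0.701). COL4A1, COL5A1, LOXL2 and P4HA2 overlapped between arms, with log2 fold changes of 0.03, -0.02, -0.01 and 0.09 and standard errors of 0.04 to 0.08. COL26A1 had 0 and 1 counts with the miR-17 decoy against 1 and 0, and ADAMTS2 1 and 5 against 5 and 1. At these levels no fold change can be read. Among the 56 other pathway genes tested, 0 were called by edgeR, with 4 at an unadjusted p below 0.05. DESeq2 called 0 of these and limma on the deposited matrix 1.

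The last comparison tested whether the response differed between the lines, as SK-Hep1 response minus HepG2 response. Of the 10 genes 2 passed, where 3.75% of all genes did. LOX differed by 0.69 ± 0.08 on the log2 scale (edgeR adjusted p = 1.79e-08), with each HepG2 miR-17 TuD library below its controls and each SK-Hep1 miR-17 TuD library above. COL1A1 differed by -0.69 ± 0.14 (edgeR adjusted p = 0.000963), higher with the miR-17 decoy in HepG2 and overlapping in SK-Hep1; on the deposited matrix this call was lost (limma adjusted p = 0.0611). PLOD2 differed by 0.18 ± 0.06, which did not pass (edgeR adjusted p = 0.0894), although it did without replicate 3 of either HepG2 arm, miR-17 or control (edgeR adjusted p = 0.0293 and 0.0306). For COL26A1 and ADAMTS2 the difference was 1.24 ± 2.08 and 1.06 ± 0.89, because SK-Hep1 held 6 counts or fewer per group, so a response confined to HepG2 was not shown.

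Among the 56 other pathway genes, 7 differed upward and 1 downward in this contrast, or 14.3%, beside 3.75% of all genes tested. Because the lists were chosen with earlier results known, this is no test of the set. Over all 13349 genes, 165 differed upward and 335 downward. DESeq2 called 5 of the 56 (4 upward), and limma on the deposited matrix 2 of 60 (1 upward). The edgeR calls included the folding genes P4HA1 (0.41 ± 0.09, edgeR adjusted p = 0.00162) and PPIB (0.28 ± 0.06, edgeR adjusted p = 0.00162). These stood at 0.15 ± 0.07 and 0.07 ± 0.05 in SK-Hep1 without passing there. Their arms in SK-Hep1 did not overlap. On the deposited matrix both calls were lost (limma adjusted p = 0.0558 and 0.0692).

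Likeness to the members was described by Pearson r of log2 CPM over the 10 libraries after each line was centred on its mean, among 10261 well-expressed genes. These points share libraries and arms, so the values are a description. Among the genes most like COL1A1 were RHOG and KRT80 (r = 0.986 and 0.985). For LOX they were SGK1, PDIA6 and HSPA5 (0.984, 0.982 and 0.978), and for COL26A1 they included RSC1A1 and MINA (0.987 and 0.982). For COL26A1 the SK-Hep1 libraries held 0 or 1 count each. For COL4A1 no gene is named, because its level hardly varied within SK-Hep1 and its HepG2 libraries held 0 or 1 count, so that r would follow single counts.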

How the data were processed

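Messenger RNA libraries (TruSeq v2, no strand kept, 150 ng RNA, 50 bp paired reads) of 10 samples were analysed. The authors deposited a table of raw counts per gene for each sample and 1 matrix of log2 values. The submitters' processing notes list STAR, SAMtools, HTSeq 0.5.4p5, limma and the build hg19, without tying them to a file. The series text instead names a mouse genome, TopHat and RSEM; the symbols are human and the count files end in total entries of the HTSeq type. Reads outside genes (11.6% to 14.1% of a column), ambiguous (0.584% to 0.619%), not unique (4.47% to 5.04%) and unaligned (2.43% to 2.87%) were left out.

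Counts were fitted with edgeR 4.0.16 (R 4.3.3): filterByExpr, TMM, 1 robust quasi-likelihood fit of 4 group means over 10 libraries, two-sided tests, Benjamini-Hochberg adjustment over 13349 genes, called below 0.05. Errors of fold changes are SE (log2 fold change over the root of F); levels are mean ± SD. Alternatives used DESeq2 1.42.0, its size factors, no filter, the libraries of 1 line, a replicate block, limma 3.58.1 on the deposited log2 matrix and leaving out each library. On simulated counts, 87% and 93% of genes changed 1.5- and 2-fold were recovered in HepG2 (13269 genes, 4 false of 184 calls) and 84% and 95% in SK-Hep1 (13281 genes, 10 false of 189). Only 100 genes changed per fold, against 2571 called in HepG2. They were drawn from genes above a limit on the average level. Recovery of genes with few counts is thus not given by these values. Libraries of a group differed by 1.39 to 3.59 times counting error (chi-square over degrees of freedom), so none was merged. Ratio intervals are exact at 95% and cover counting error only.

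The members and lists were chosen with earlier results of these data known. Beyond members and their partner subunits (COL1A2, P4HA1, P4HB, PLOD1, PLOD3, SERPINH1), named genes are up to 3 called genes per list and decoy contrast, or 2 for the line contrast, with the smallest adjusted p, and the 3 genes most like COL1A1, COL4A1, COL26A1 and LOX (average log2 CPM of at least 3); others are named as chosen later. Some genes this rule names are not reported here. Lengths, positions and 3′UTRs are from GENCODE 29 on GRCh38, and promoters and microRNAs from RefSeq, while the notes name hg19. Marker lists were hepatocyte, endothelial, fibroblast or stellate, smooth muscle and blood cell.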

Additional observations from a re-analysis of the deposited data

Results flagged for a closer look

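The response to the miR-17 decoy differed between HepG2 and SK-Hep1, by the edgeR test of that difference, for 10 genes of the collagen pathway. These were 15.2% of the 66 pathway genes tested, beside 3.75% of all 13349 genes tested (165 higher and 335 lower). The lists were chosen with earlier results of these data known. Each value is the SK-Hep1 response minus the HepG2 response on the log2 scale. LOX differed by 0.69 and COL1A1 by -0.69. Folding and hydroxylation genes were P4HA1 at 0.41, LEPRE1 at 0.29, PPIB at 0.28 and P4HB at 0.16. COL6A1 stood at 0.51, the propeptide enhancers PCOLCE and PCOLCE2 at 0.73 and 1.99, and the inhibitor TIMP2 at -0.23. Leaving out 1 of the 10 libraries ended the call of P4HB and of PCOLCE in 8 cases, of TIMP2 in 7, and of COL6A1 and LEPRE1 in 4. It ended no call of LOX, COL1A1, P4HA1, PPIB or PCOLCE2. Groups of 2 and 3 libraries were too small for a check of single libraries that stand apart.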

How the results depend on the processing

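Counts of called members in HepG2 stayed at 4 under every edgeR or DESeq2 setting and without each library (4 to 4), and were 2 by limma on the deposited matrix. In SK-Hep1 the 2 calls became 0 with the replicate block and on the matrix, with all libraries or SK-Hep1 alone (0 and 0), and 0 to 2 without each library. For the difference between lines the 2 calls became 1 on the matrix and 2 to 3 without each library. All 10 line calls held (10 to 10), those of genes that passed the filter through 1 line only included. Of the pathway genes, 21 were called in HepG2 (19 to 22 without each library), 13 on the matrix and 9 there with HepG2 alone. In SK-Hep1 the 2 became 4 with DESeq2 size factors, 4 with no filter, 0 with the replicate block, 1 on the matrix, 0 there with SK-Hep1 alone, and 0 to 3 without each library. The 10 genes of the difference became 5 with the replicate block, 3 on the matrix and 5 to 11 without each library; the 61 of the line contrast ranged from 60 to 62. Over all genes, 2571 HepG2 calls became 1005 on the matrix (634 with HepG2 alone), 116 SK-Hep1 calls became 274 with SK-Hep1 alone, 58 with the replicate block, 38 on the matrix with SK-Hep1 alone and 49 to 70 without each library, and the 500 of the difference 227 with the block and 239 on the matrix. The cause was not tested, and the matrix fit added with 1 line was chosen after the data were seen.

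Same-numbered libraries did not vary together (r from -0.304 to 0.0558 in HepG2 and -0.067 in SK-Hep1), so the numbers pair nothing; under the block, PLOD2 and LOX in SK-Hep1 had edgeR adjusted p = 0.0626 and 0.139, and LEPREL2 and MMP2 in HepG2 0.0888 and 0.0651.

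Directions turned only for member values that were not called, when 1 library was left out or, for LOXL2, with DESeq2 scaling. In HepG2 these were COL4A1 (-0.55 to 0.47), LOXL2 (-0.11 to 0.0501) and P4HA2 (-0.0161 to 0.037). In SK-Hep1 they were COL4A1 (-0.00766 to 0.0627), COL5A1 (-0.0449 to 0.00273), COL26A1 (-2.26 to 2.33), ADAMTS2 (-1.35 to 1.60) and LOXL2 (-0.0344 to 0.0094, and 0.00299 with DESeq2 or its size factors). In the difference they were COL4A1 (-0.44 to 0.58), COL26A1 (-1.09 to 3.5), ADAMTS2 (-0.37 to 2.58) and LOXL2 (-0.0628 to 0.101). Depth limits COL4A1, COL4A2 and COL5A1 in HepG2 and COL26A1 and ADAMTS2 in SK-Hep1.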
